A study of Mus musculus with 6 samples.

Results

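The serpin genes described here are the 33 genes, of 16638 in the deposited table, whose symbol is Serpin followed by a clade letter from a to i and a number. Membership was set by symbol alone, and 0 pseudogenes had to be left out. The family itself was chosen with earlier results of these data known. RNA was measured by sequencing in 6 mouse livers of an obese mouse model, 3 from mice given hippuric acid (HA, the glycine conjugate of benzoic acid) and 3 labelled PBS (phosphate-buffered saline). The HA mice received 60 mg/kg by intraperitoneal injection, 2 times a week for 5 weeks. The sources used here leave out the schedule of PBS, the strain, the age, the diet and the way obesity was brought about. Since no label ties a liver to its own animal, the p-values cover the spread among these 6 samples, part of which may be technical.

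Serpins are protease inhibitors that offer an exposed loop, the reactive centre loop, as bait. When a protease cuts the loop, the serpin changes shape and holds the enzyme in an inactive complex. Hepatocytes secrete many of them into blood, where they restrain neutrophil elastase, clotting enzymes, plasmin and the first enzymes of complement, while clade b serpins mostly work inside cells. Some members inhibit nothing and carry hormones or assist the folding of collagen.

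The libraries held 37921444 to 39349601 fragments with HA and 38209590 to 39908844 fragments with PBS. All 6 listed hepatocyte markers were detected, and Alb, the albumin gene, took 12.54 to 14.65% of fragments in the HA libraries and 7.527 to 9.825% in the PBS libraries. The 6 did not move together: 3 were on average higher with HA (Alb, Apoa1 and Cps1) and 3 lower (Ttr, Hnf4a and Asgr1). Asgr1 had 91.3 to 99.1 FPKM with HA and 105.6 to 111.9 FPKM with PBS. In the test described below, 0 of the 6 passed. PBS replicate 1 stood apart through transcripts of other organs. The summed level of 5 adrenal markers was 0.197 to 0.351 FPKM with HA and 0.150 to 61.2 FPKM with PBS, and that of 5 skeletal muscle markers was 0.394 to 0.645 FPKM with HA and 0.264 to 41.6 FPKM with PBS. The top of each PBS range was PBS replicate 1. FPKM values are fragment numbers divided by gene length in kilobases and by library size. In such bulk samples, fewer cells of a type and less RNA per cell cannot be told apart.

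The family spanned 5 orders of magnitude. Averaged over the 6 libraries, 15 of the 33 members reached 100 FPKM and 16 stayed under 10 FPKM. The clade a genes Serpina1b (mean 3377 FPKM) and Serpina3k (mean 3059 FPKM) stood at the top, and of the other clades Serpinc1 (806 FPKM), Serping1 (537 FPKM), Serpinf2 (364 FPKM), Serpind1 (294 FPKM) and Serpinf1 (269 FPKM) were the ones above 100 FPKM. All of these encode plasma proteins made by hepatocytes. Summed over the 33 members, the level was 14714, 16770 and 16847 FPKM in HA replicates 1 to 3, against 14315, 14426 and 14598 FPKM in PBS replicates 1 to 3. All 3 HA sums lay above all 3 PBS sums, the lowest by a small step. Without Serpina1e the sums were 13354, 15186 and 14804 FPKM in HA livers, against 13999, 14207 and 14421 FPKM in PBS livers. These overlapped, and HA replicate 1 was the lowest of the 6.

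**Figure D1:**
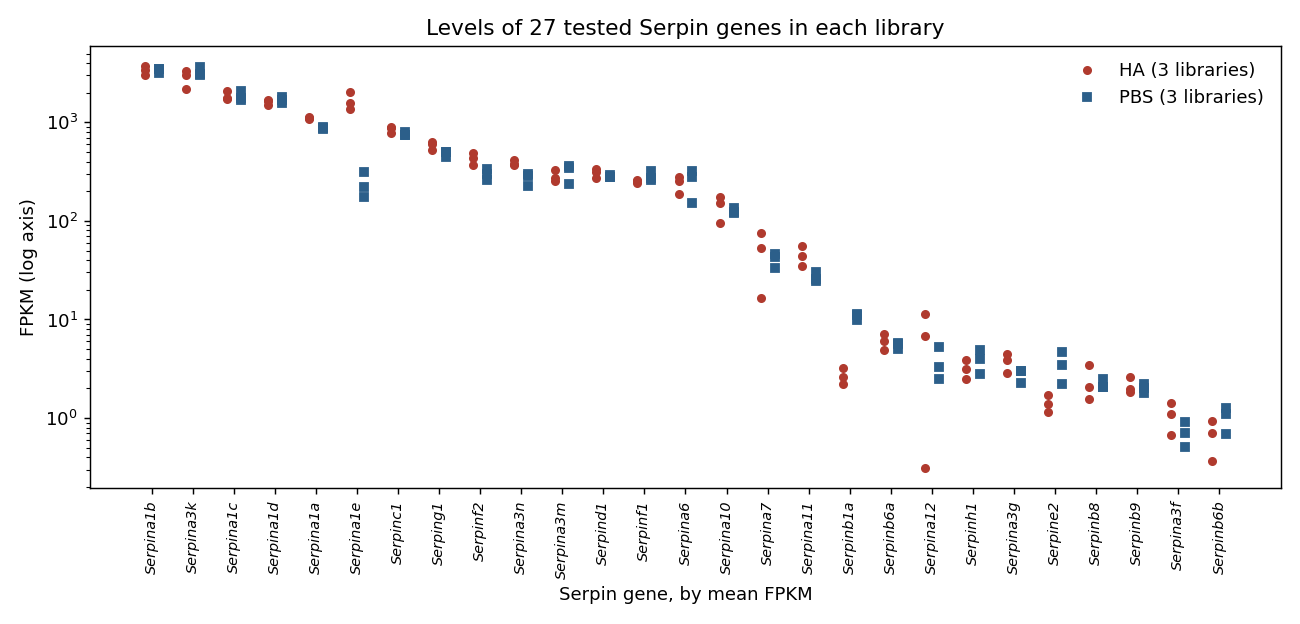
FPKM on a log axis of 27 of the 28 Serpin genes that averaged 0.5 FPKM or more, ordered by mean; red circles are the 3 HA libraries and blue squares the 3 PBS libraries. Serpina1e (1360.2 to 2043 FPKM with HA, 177 to 316 FPKM with PBS) and Serpinb1a (2.21 to 3.20 FPKM with HA, 9.96 to 11.4 FPKM with PBS) are the genes whose groups stand widest apart, and Serpina12 spreads from 0.312 to 11.4 FPKM among the HA libraries alone.

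Each gene was tested on log2(FPKM + 1) with limma across the 10745 genes averaging at least 0.5 FPKM, and p-values were adjusted over all of them by Benjamini-Hochberg with a threshold of 0.05. Of the 33 members, 28 passed the filter, 1 rose (Serpina1e), 1 fell (Serpinb1a) and 26 did not pass the test. Over all genes tested, 0.8% were called, 0.289% higher with HA and 0.512% lower, and since the family was looked at with these 2 changes already known, nothing is read from its share. The groups did not overlap in 9 of the 28 tested members, 7 of them higher with HA and 2 lower, and the same 9 had an unadjusted p under 0.05. How many of all genes tested had such a p was not counted, so nothing is read from this count or like counts below. Over all genes tested, the groups lay apart for 25.6%, made up of 6.47% in the higher direction and 19.2% in the lower direction. The median log2 fold change was 0.08 over the 28 members and -0.06 over all genes tested.

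**Figure D2:**
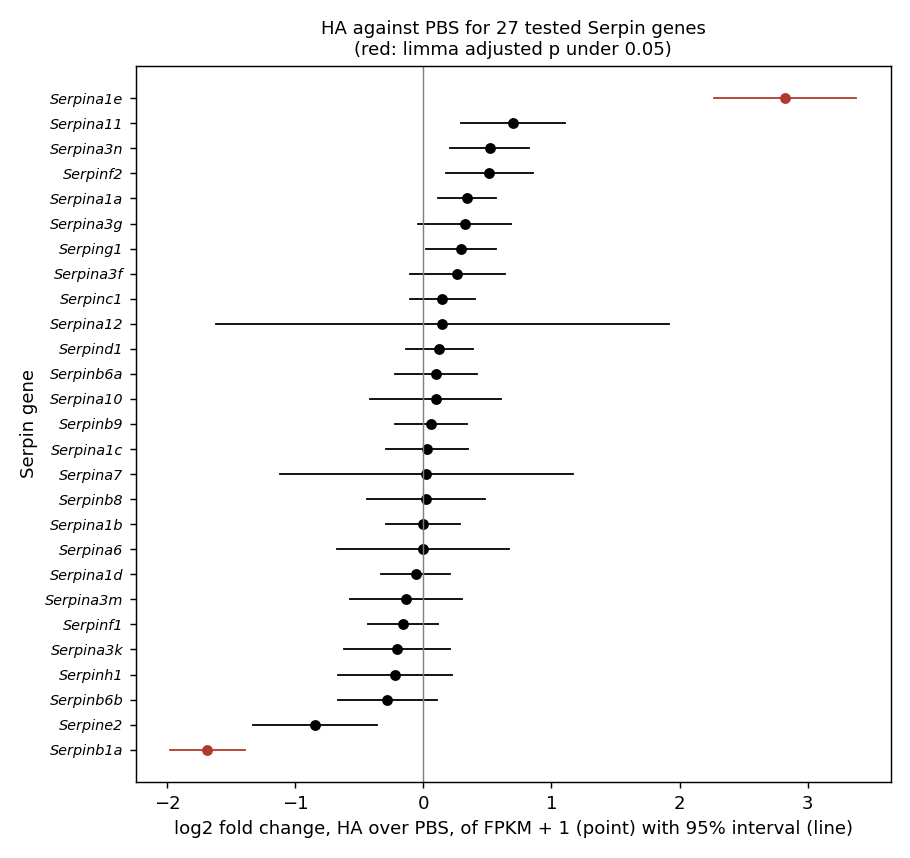
Log2 fold change of FPKM + 1, HA over PBS, for 27 of the 28 tested Serpin genes, with points for the estimates and lines for their 95% intervals from limma. Serpina1e (2.82) and Serpinb1a (-1.69), in red, passed an adjusted p of 0.05, and the widest interval is that of Serpina12 (-1.62 to 1.91).

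The alpha-1-antitrypsin genes, whose human counterpart is the main plasma inhibitor of neutrophil elastase, exist in mice as several near-identical copies, of which Serpina1a to Serpina1e are in the table. Serpina1e rose 7.00-fold, while the groups of Serpina1b, Serpina1c and Serpina1d overlapped. In a RefSeq gene order (GRCm38.p6), the copies lie side by side on chromosome 12 in the order Serpina1b, Serpina1d, Serpina1a, Serpina1c and Serpina1e, followed by Serpina11. Their coding sequences were 96.3 to 98.5% identical over the 10 pairs, with a median of 96.6%. Of 1242 aligned coding bases, 86 varied between copies, and 18 of these fell within a stretch of 60 bases near the 3′ end. That stretch was picked as the 60 bases of the coding sequence with the most varying positions, so its differences are many by choice. It encodes part of the reactive centre loop, which sets the proteases a serpin can trap, and it tells the copies apart. It lies in the last exon of each gene (exon 6 of Serpina1a, exon 5 of the other copies), on the minus strand of GRCm38 (GENCODE transcripts) at chr12:103947100-103947159 for Serpina1e, chr12:103853757-103853816 for Serpina1a, chr12:103728324-103728383 for Serpina1b, chr12:103895094-103895153 for Serpina1c and chr12:103763762-103763821 for Serpina1d. Capitals mark the bases that are not alike in all 5 copies.
Serpina1e: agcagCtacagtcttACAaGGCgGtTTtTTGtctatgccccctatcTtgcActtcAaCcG
Serpina1a: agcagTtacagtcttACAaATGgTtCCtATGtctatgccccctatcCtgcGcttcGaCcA
Serpina1b: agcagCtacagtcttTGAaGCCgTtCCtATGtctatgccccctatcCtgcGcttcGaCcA
Serpina1c: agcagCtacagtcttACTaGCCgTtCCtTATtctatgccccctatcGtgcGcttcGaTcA
Serpina1d: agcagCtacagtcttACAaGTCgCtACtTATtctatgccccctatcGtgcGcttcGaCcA
Against Serpina1e, 10 of these 60 bases were unlike in Serpina1d, 11 in Serpina1b and 12 each in Serpina1a and Serpina1c.

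The sequence upstream of the 5 copies is shown because copies with unlike levels share most of it. The blocks are the part of the RefSeq promoter windows (GRCm38.p6, minus strand) that aligned in all 5 copies and ended before each annotated start, at chr12:103956960-103957147 for Serpina1e, chr12:103863625-103863812 for Serpina1a, chr12:103738200-103738389 for Serpina1b, chr12:103904962-103905149 for Serpina1c and chr12:103773634-103773822 for Serpina1d. The block ended 63 bases before the annotated start in Serpina1e and 1 to 12 bases before it in the other copies. Capitals mark the 23 aligned positions, insertions included, that are not alike in all copies.
Serpina1e: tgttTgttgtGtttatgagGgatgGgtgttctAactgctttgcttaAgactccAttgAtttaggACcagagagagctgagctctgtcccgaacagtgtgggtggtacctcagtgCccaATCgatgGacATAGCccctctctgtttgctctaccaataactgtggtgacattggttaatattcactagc
Serpina1a: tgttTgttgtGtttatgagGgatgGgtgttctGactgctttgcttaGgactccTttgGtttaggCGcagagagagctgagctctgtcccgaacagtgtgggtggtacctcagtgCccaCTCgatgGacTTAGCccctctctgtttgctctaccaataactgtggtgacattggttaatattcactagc
Serpina1b: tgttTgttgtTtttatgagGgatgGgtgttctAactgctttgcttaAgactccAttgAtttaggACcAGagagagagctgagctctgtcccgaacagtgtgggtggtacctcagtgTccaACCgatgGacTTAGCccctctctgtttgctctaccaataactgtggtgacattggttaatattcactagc
Serpina1c: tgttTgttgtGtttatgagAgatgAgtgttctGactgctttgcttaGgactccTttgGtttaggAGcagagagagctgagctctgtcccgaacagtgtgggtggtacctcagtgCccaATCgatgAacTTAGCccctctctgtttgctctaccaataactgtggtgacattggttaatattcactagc
Serpina1d: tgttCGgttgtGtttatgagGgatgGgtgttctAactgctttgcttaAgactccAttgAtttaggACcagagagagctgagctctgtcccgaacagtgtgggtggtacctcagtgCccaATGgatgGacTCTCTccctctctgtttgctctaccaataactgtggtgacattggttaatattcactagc
In these blocks Serpina1b differed from Serpina1e at 6 aligned positions, Serpina1a and Serpina1d at 8 each and Serpina1c at 9. The stretch ggttaatattcac near the 3′ end was alike in all 5. It holds the letters GTTAAT, a half-site of HNF1, a liver transcription factor known to drive the human alpha-1-antitrypsin gene. Both strands were searched, and no overlap with another motif was counted. The letters stood in the windows (250 bases before to 50 after the start) of 8.24% of 27025 genes, and in those of 8 of the 25 members with a window, among them all 5 Serpina1 copies. A match describes the sequence and does not show a bound site. The letters TTCNNNGAA, a STAT motif, stood in the windows of 9.55% of the genes and of 5 members, Serpina11, Serpina3f, Serpina3g, Serpina3i and Serpinb6a.

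Serpina1e had 1360.2, 1583 and 2043 FPKM in HA replicates 1 to 3, against 316, 219.5 and 177 FPKM in PBS replicates 1 to 3. Every HA library was above 4 times the highest PBS library, and the gene was read from 73541 to 106454 fragments with HA and 9282 to 16930 fragments with PBS. Its mean was 1662 ± 348 FPKM with HA and 237 ± 71.1 FPKM with PBS (SD, n = 3 each), and its log2 fold change was 2.82 (SE 0.24, limma adjusted p = 0.00678). With PBS replicate 2 left out it missed the threshold (adjusted p = 0.0551), and it passed without PBS replicate 1 (log2 fold change 3.05, adjusted p = 0.0238).

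Serpina1a had 1089, 1109.5 and 1147 FPKM in HA livers, against 876, 864 and 902 FPKM in PBS livers. The groups did not overlap and each was tight, at 1115 ± 29.6 FPKM with HA and 881 ± 19.4 FPKM with PBS (SD, n = 3 each). Its log2 fold change was 0.34 (SE 0.10), which did not pass over all genes (limma adjusted p = 0.143). The most abundant copy, Serpina1b, had 3019, 3734 and 3392 FPKM in HA livers, against 3449, 3203 and 3463 FPKM in PBS livers. Serpina1c had 1729.7, 2103 and 1781 FPKM in HA livers, against 1672, 1757 and 2075 FPKM in PBS livers. Serpina1d had 1485, 1695 and 1660.1 FPKM in HA livers, against 1676, 1567 and 1807 FPKM in PBS livers. In all 3 the groups were mixed, and the 95% intervals of the log2 fold change were -0.29 to 0.29 for Serpina1b, -0.29 to 0.35 for Serpina1c and -0.33 to 0.21 for Serpina1d.

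Summed over the 5 copies, the level was 8683, 10225 and 10023 FPKM in HA livers, against 7988, 7611 and 8425 FPKM in PBS livers. These sums did not overlap and their means stood at a ratio of 1.2 (9644 ± 838 FPKM with HA and 8008 ± 407 FPKM with PBS, SD, n = 3 each). Without Serpina1e the summed level was 7323, 8642 and 7979.8 FPKM in HA livers, against 7673, 7392 and 8248 FPKM in PBS livers, a ratio of 1.03 with overlapping groups. Serpina1e made up 15.7, 15.5 and 20.4% of the summed level in the HA libraries, against 3.95, 2.88 and 2.10% in the PBS libraries. Serpina1b made up 34.8, 36.5 and 33.8% with HA, against 43.2, 42.1 and 41.1% with PBS; since its own level overlapped between groups, this share moves with the level of Serpina1e and is no separate result.

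Fragments of these genes can match several copies. In the GENCODE transcripts, 92.6% of the windows of 150 bases in Serpina1e occurred in no other Serpin gene, 88.1% in Serpina1b, 79.8% in Serpina1d, 64.9% in Serpina1a and 49.5% in Serpina1c. With windows of 100 bases the shares were 85.6% for Serpina1e, 86.2% for Serpina1b, 73.7% for Serpina1d, 59.2% for Serpina1a and 41.5% for Serpina1c. Here and below, windows were pooled over all annotated transcripts of a gene, coding or not. The shares may therefore differ from those of the transcripts expressed in these livers. The sources used here give neither the read length nor the handling of fragments that match several copies, and their part in the values of single copies was not tested.

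**Figure D3:**
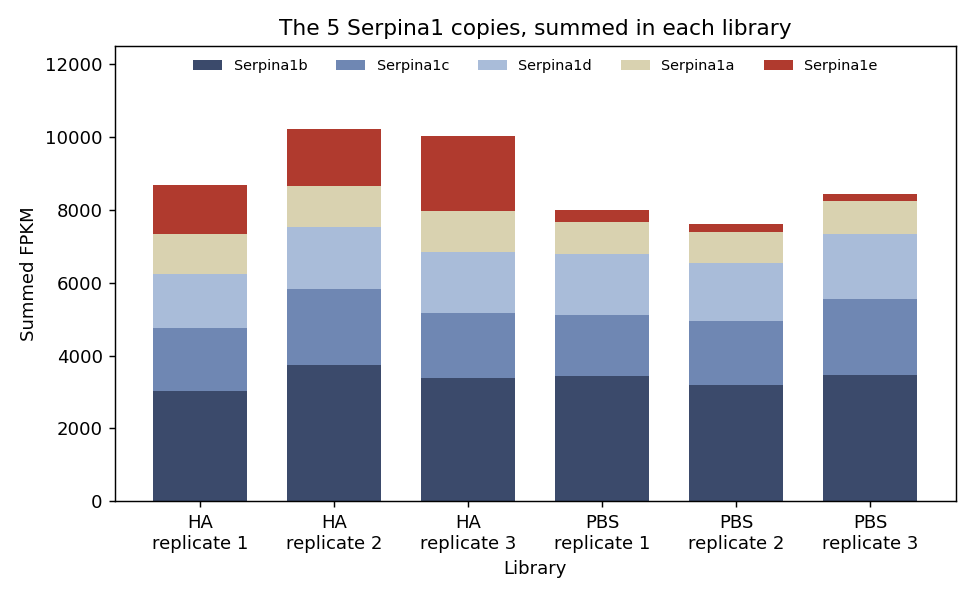
Stacked bars of the FPKM of Serpina1b, Serpina1c, Serpina1d, Serpina1a and Serpina1e in each of the 3 HA and 3 PBS libraries, starting at 0. The top segment, Serpina1e, is 15.5 to 20.4% of the sum in the HA libraries and 2.10 to 3.95% in the PBS libraries, while the sum of the other 4 copies overlaps between groups.

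The Serpina3 genes are the mouse expansion of the human alpha-1-antichymotrypsin gene, and 7 of them are in the table. Of the 5 that were tested 0 passed, and 1 (Serpina3n) had an unadjusted p under 0.05. Serpina3n, an acute phase protein that also inhibits granzyme B, had 378, 369 and 411 FPKM in HA livers, against 301, 284 and 229 FPKM in PBS livers. All 3 HA values lay above all 3 PBS values, at 386 ± 21.9 FPKM with HA and 271 ± 37.8 FPKM with PBS (SD, n = 3 each), and the log2 fold change was 0.52 (SE 0.13, limma adjusted p = 0.113). Serpina3k, a kallikrein-binding serpin and the dominant copy, had 2207, 3347 and 3024 FPKM in HA livers, against 3045, 3657 and 3075 FPKM in PBS livers. HA replicate 1 was the lowest of the 6 and the groups overlapped, with a 95% interval of -0.62 to 0.21 for the log2 fold change. Serpina3m had 253, 270.0 and 332 FPKM in HA livers, against 362, 239 and 347 FPKM in PBS livers, also overlapping (interval -0.57 to 0.30).

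Serpina3g and Serpina3f, the lower of the tested copies, overlapped as well. Serpina3g, which inhibits lysosomal cathepsins in the cytosol, had 3.86, 2.85 and 4.51 FPKM in HA livers, against 2.28, 2.99 and 3.03 FPKM with PBS. Serpina3f had 1.09, 0.674 and 1.43 FPKM in HA livers, against 0.503, 0.908 and 0.709 FPKM with PBS. The 7 copies summed to 2843, 3990.1 and 3772 FPKM in HA livers, against 3711, 4184 and 3655 FPKM in PBS livers, a ratio of 0.918, or 1.01 without HA replicate 1. These genes are less alike than the Serpina1 copies. Their coding sequences were 80.0 to 91.3% identical over 21 pairs, and 93.9 to 100% of their windows of 100 bases occurred in no other Serpin gene.

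The inhibitors of clotting and fibrinolysis did not pass the test. Serpinc1, which encodes antithrombin, the main inhibitor of thrombin and factor X, had 896, 772 and 876 FPKM in HA livers, against 744, 801 and 746 FPKM in PBS livers. The groups overlapped, at 848 ± 66.9 FPKM with HA and 764 ± 32.4 FPKM with PBS (SD, n = 3 each), and the log2 fold change was 0.15 (95% interval -0.11 to 0.40, limma adjusted p = 0.504). Serpind1, heparin cofactor II, which also inhibits thrombin, had 335, 271 and 317 FPKM in HA livers, against 289, 276 and 278 FPKM in PBS livers. Serpina10, the protein Z-dependent inhibitor of factor X, had 174, 94.4 and 153 FPKM in HA livers, against 137, 124 and 121 FPKM in PBS livers. In both, HA replicate 2 was below and the other HA libraries above every PBS library.

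Serpinf2, which encodes alpha-2-antiplasmin, the main inhibitor of plasmin, had 484, 368 and 433 FPKM in HA livers, against 296, 339 and 263 FPKM in PBS livers. Its groups lay apart, at 428 ± 58.0 FPKM with HA and 299.7 ± 38.2 FPKM with PBS (SD, n = 3 each), and the log2 fold change was 0.51 (SE 0.15, limma adjusted p = 0.142). Serping1, the C1 inhibitor that restrains complement and plasma kallikrein, had 637, 530.4 and 608 FPKM in HA livers, against 499, 506 and 442 FPKM in PBS livers. Its groups lay apart by a smaller step, and the log2 fold change was 0.29 (SE 0.12, limma adjusted p = 0.259). Neither gene passed under any alternative tried; the adjusted p ran from 0.0977 to 0.364 for Serpinf2 and from 0.153 to 0.469 for Serping1.

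Of clade e, Serpine2, a low gene, was picked out after its values were seen and did not pass. Serpine2, protease nexin-1, an inhibitor of thrombin and plasminogen activators, had 1.39, 1.70 and 1.15 FPKM in HA livers, against 4.66, 2.20 and 3.44 FPKM with PBS. All 3 HA values lay below all 3 PBS values, of which PBS replicate 1 was the highest (log2 fold change -0.85, SE 0.21, limma adjusted p = 0.109; -0.65 without that library).

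Of the serpins with other tasks in blood, Serpina6 and Serpina7 carry hormones. Serpina6, the cortisol- and corticosterone-binding globulin, had 254, 187 and 281 FPKM in HA livers, against 276, 152 and 320.1 FPKM with PBS. Serpina7, the thyroxine-binding globulin, had 75.8, 16.6 and 52.9 FPKM in HA livers, against 42.8, 45.8 and 33.0 FPKM with PBS. The HA libraries of Serpina7 straddled the PBS range, and the 95% interval of its log2 fold change was -1.12 to 1.17. Serpina12, vaspin, a secreted factor first known from fat tissue, was likewise picked out after its values were seen, for its spread of 11.4, 0.312 and 6.80 FPKM in HA livers, against 2.48, 5.28 and 3.27 FPKM with PBS. HA replicate 2 was the lowest of the 3 HA libraries in 14 of the 28 tested members, among them Serpina7, Serpina10 and Serpina12.

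Serpina11, the gene next to Serpina1e, had 55.4, 35.1 and 44.1 FPKM in HA livers, against 24.7, 30.4 and 25.6 FPKM with PBS. Its groups lay apart, at 44.9 ± 10.2 FPKM with HA and 26.9 ± 3.07 FPKM with PBS (SD, n = 3 each), and its log2 fold change was 0.70 with an SE of 0.17, which did not pass (limma adjusted p = 0.111). Serpinf1, pigment epithelium-derived factor, which binds the lipase encoded by Pnpla2 and inhibits blood vessel growth, had 245, 256 and 258 FPKM in HA livers, against 271, 324 and 258 FPKM in PBS livers. The highest HA value and the lowest PBS value both rounded to 258 FPKM (95% interval -0.43 to 0.11).

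**Figure D4:**
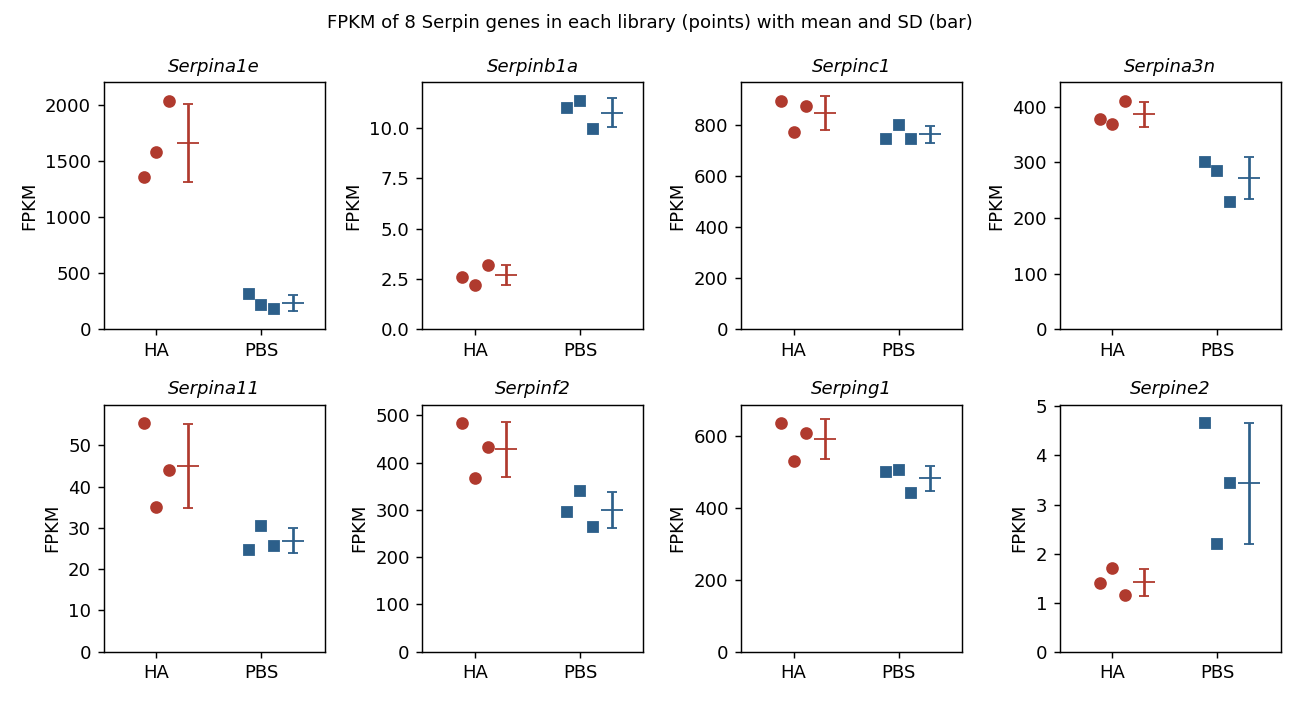
FPKM of 8 Serpin genes in each library, with the 3 HA libraries at the left of each panel and the 3 PBS libraries at the right, and beside the points the mean with its SD. The groups lie apart in every panel except Serpinc1 (772 to 896 FPKM with HA, 744 to 801 FPKM with PBS), and in Serping1 the lowest HA value, 530.4 FPKM, is near the highest PBS value, 506 FPKM.

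Among the intracellular clade b serpins, Serpinb1a fell. It encodes an inhibitor of neutrophil elastase, cathepsin G and proteinase 3, abundant in neutrophils and also released by mouse liver. Serpinb1a had 2.62, 2.21 and 3.20 FPKM in HA livers (250, 205 and 295 fragments), against 10.99, 11.4 and 9.96 FPKM with PBS (1042, 1101 and 924 fragments). The highest HA library was well below the lowest PBS library. Its mean was 2.68 ± 0.50 FPKM with HA and 10.8 ± 0.727 FPKM with PBS (SD, n = 3 each), 4.02-fold lower with HA. The log2 fold change was -1.69 (SE 0.12, limma adjusted p = 0.00608). The call was kept in all 14 alternatives tried (adjusted p from 0.00512 to 0.0470), among them the fit without PBS replicate 1 (log2 fold change -1.67, adjusted p = 0.0470).

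Of 9 neutrophil markers looked for, 8 were in the table, and their summed level was 5.56 to 9.62 FPKM with HA and 1.49 to 3.47 FPKM with PBS. S100a8 and S100a9 were the 2 above the filter; 0 passed, and 2 had an unadjusted p under 0.05. Mpo, Camp and Ngp, all below the filter, were at 0 in all 3 PBS libraries. In HA replicates 1 to 3 they had few fragments, 2, 0 and 5 for Mpo, 0, 5 and 5 for Camp and 11, 3 and 26 for Ngp. Csf3r, Retnlg and Cxcr2, also below the filter, were present in PBS livers, and their groups overlapped. Csf3r had 101, 63 and 94 fragments with HA, against 44, 70 and 43 with PBS. Retnlg had 8, 8 and 3 fragments with HA, against 5, 0 and 4 with PBS. Cxcr2 had 14, 1 and 2 fragments with HA, against 6, 1 and 1 with PBS. The part of neutrophils in the Serpinb1a values was not tested. Of 5 red blood cell markers, 3 globin genes rose and 0 fell (limma adjusted p = 0.0272 for Hba-a1, 0.0325 for Hba-a2 and 0.0324 for Hbb-bt), and the 5 summed to 698 to 1319 FPKM with HA and 227 to 335 FPKM with PBS. Over all genes tested, 0.289% were called higher and 0.512% lower. Hbb-bs was higher without passing (limma adjusted p = 0.0516). Alas2 went the other way, with 34.2 to 36.6 FPKM with HA and 36.8 to 45.8 FPKM with PBS (limma adjusted p = 0.364). The sums also lay apart for 5 cholangiocyte markers (24.7 to 29.1 FPKM with HA, 13.3 to 23.3 FPKM with PBS) and 4 platelet markers (2.0 to 2.65 FPKM with HA, 0.966 to 1.87 FPKM with PBS), and 0 genes of either list passed, 1 (Spp1) having an unadjusted p under 0.05. Most of the cholangiocyte sum was Spp1 (23.3 to 27.0 FPKM with HA, 12.2 to 21.2 FPKM with PBS). Of the other cholangiocyte markers, Krt19, Krt7 and Epcam overlapped between groups, and Sox9, a low gene, lay apart. The sums of 6 Kupffer cell and macrophage markers overlapped narrowly, at 81.8 to 157 FPKM with HA and 67.2 to 82.1 FPKM with PBS. All 6 had a log2 fold change above 0, 0 passed, and 2 had an unadjusted p under 0.05. The part of these cells in the serpin values was not tested. Of the mast cell markers Kit was the 1 in the table.

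The other clade b genes did not pass. Serpinb6a, an inhibitor of trypsin-like proteases and cathepsin G, had 4.87, 5.98 and 7.11 FPKM in HA livers, against 5.82, 4.97 and 5.63 FPKM with PBS, with overlapping groups (95% interval of the log2 fold change -0.22 to 0.42). Serpinb6b, Serpinb8 and Serpinb9, the last an inhibitor of granzyme B, had means of 0.845 to 2.27 FPKM over the 6 libraries and log2 fold changes of -0.28 to 0.06. Serpinb1c, a near relative of Serpinb1a, was too low to be tested, with 0, 2 and 0 fragments with HA, against 13, 7 and 6 fragments with PBS. All windows of 100 bases in Serpinb1a and Serpinb1c (100%) occurred in no other Serpin gene.

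Serpinh1, the endoplasmic reticulum chaperone of collagen known as HSP47, ranged over 2.47 to 3.85 FPKM with HA and 2.80 to 4.93 FPKM with PBS, with overlapping groups. The 5 members below the filter, Serpina3c, Serpina3i, Serpina9, Serpinb1c and Serpini1 (neuroserpin), had means of 0.0254 to 0.0601 FPKM and rested on 11 to 44 fragments over all 6 libraries. The highest value in any library was 0.165 FPKM.

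The proteases that serpins restrain were described with a list of 27 genes, of which 25 were in the table and 19 passed the filter. Of these, 1 rose (Prss8), 0 fell and 18 did not pass, beside the 0.289% and 0.512% of all genes called higher and lower, and the median log2 fold change was 0.12. Among the 19, 6 had an unadjusted p under 0.05, a count with no share of all genes beside it. The groups did not overlap in 7 proteases higher with HA and 2 lower, beside 6.47% and 19.2% of all genes tested. The 3 most abundant, Plg (plasminogen), F2 (prothrombin) and Proc (protein C), had means of 949.8 ± 106, 675 ± 47.0 and 205 ± 6.16 FPKM in HA livers, against 841 ± 84.6, 613 ± 50.3 and 205 ± 10.1 FPKM with PBS (SD, n = 3 each), and the groups of each overlapped. Prss8, which encodes prostasin, a membrane-anchored protease, had 4.87, 2.87 and 3.17 FPKM in HA livers, against 1.24, 0.830 and 1.04 FPKM with PBS. All HA values were above all PBS values (log2 fold change 1.17, SE 0.17, limma adjusted p = 0.0415). Prss8 missed the threshold with PBS replicate 1, 2 or 3 or HA replicate 3 left out, at adjusted p-values of 0.142, 0.138, 0.147 and 0.0728.

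Prtn3, proteinase 3 of neutrophil granules and a target of Serpinb1a, was picked out after its values were seen. It had 27.9, 1.10 and 8.26 FPKM in HA livers, against 0.342, 0.437 and 0.107 FPKM with PBS. The HA libraries were all above the PBS libraries but differed widely among themselves, and the log2 fold change was 2.68 with an SE of 0.81, which did not pass (limma adjusted p = 0.158), though it did without HA replicate 2 (log2 fold change 3.67, adjusted p = 0.0246). Without HA replicate 1, the highest library, the log2 fold change was 1.78 (adjusted p = 0.195). Elane, neutrophil elastase, had 0.359 FPKM at most in any library and was not tested.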

How the data were processed

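Liver RNA of 3 HA and 3 PBS samples was compared, grouped by the treatment label (the PBS samples are headed CON in the table). The authors deposited FPKM values of 16638 genes in a single table; the files do not name the unit, which was inferred from the values. Per the submitters' processing notes, Trimmomatic and HISAT2 were used with build GRCm39; the sources used here give no versions, counter, annotation or use of strand. The labels' protocols name 2 library kits without saying which was used.

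Low FPKM values stood in whole-number ratios between libraries, which gave the library totals, gene lengths and whole fragments (100% of genes, within 0.0001). The totals are known up to a shared whole-number factor, the smallest being used here, and depth limits counting error only.

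limma 3.58.1 (R 4.3.3) was fitted to log2(FPKM + 1) with a variance trend and treatment as the only term, for genes averaging 0.5 FPKM or more. Fold changes on this scale understate the change of low genes. The same code was run on simulated counts, which checks the code and does not show how well the fit suits these data. With 3 samples a group, the smallest two-sided p of an exact permutation test is 0.1, so sums and shares carry no p. Sequences were aligned with MAFFT 7.526. Of the tested members, 1 is not reported here by name. The family and the gene lists were chosen with earlier results of these data known. Values per library are given for members past the threshold, for Serpina1e, Serpinb1a and Serpinc1, for tested Serpina1 and Serpina3 copies and for members with a mean of at least 5 FPKM; genes of the protease and partner lists are named if past the threshold or among the 3 most abundant. Prtn3, Elane and single cell markers were named after their values were seen.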

Additional observations from a re-analysis of the deposited data

How the results depend on the processing

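The fits were repeated with 14 alternatives. Serpinb1a was the 1 member lower with HA in all of them. Serpina1e was the 1 member higher in all but 2, the replicate block and the fit without PBS replicate 2. With the replicate block 0 members were higher (Serpina1e log2 fold change 2.82, adjusted p = 0.0558), and without single libraries 0 to 1. Over all genes, 31 were higher and 55 lower, against 7 and 9 with the block, 7 and 10 with no filter, 36 and 32 after median centring, 33 and 24 scaled to fragments outside Alb, 23 and 37 with voom, and 1 to 46 and 4 to 69 without single libraries. The deviations of same-numbered libraries correlated at -0.138, -0.125 and 0.176, and those of differently numbered libraries at -0.134 to 0.217. With 3 libraries a group, these values cannot decide whether the numbers pair the libraries. Of 390 member fold changes over the alternatives, 360 kept their sign and their side of the threshold, 2 (Serpina1e) lost the call and 28 changed sign without a call; the cause was not tested. After median centring the log2 fold change was 0.064 for Serpina1b, 0.003 for Serpina1d, 0.062 for Serpina6 and 0.064 for Proc; scaled to fragments outside Alb it was 0.088, 0.026, 0.085 and 0.087 for the same 4 and 0.008 for Hsd11b1. Serpina12 was at -0.171 with a pseudocount of 0.1 and at -0.261 with voom on recovered fragments. Without single libraries the log2 fold change ran from -0.082 to 0.357 for Serpina10, -0.504 to 1.118 for Serpina12, -0.074 to 0.079 for Serpina1b, -0.058 to 0.121 for Serpina1c and -0.325 to 0.212 for Serpina6. It ran from -0.417 to 0.645 for Serpina7, -0.013 to 0.219 for Serpinb6a, -0.203 to 0.197 for Serpinb8, -0.04 to 0.125 for Serpinb9, -0.032 to 0.038 for Proc and -0.15 to 0.057 for Hsd11b1. The ratio of summed Serpina1 copies stayed between 1.17 and 1.26, and that of the Serpina3 copies between 0.859 and 1.01. Prss8 also lost its call with no filter, voom and the replicate block (adjusted p = 0.0858, 0.0529 and 0.0586). Serpins under 1 FPKM rest on too few fragments for small differences to be detectable.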

Other observations

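Partners of serpins were described with a list of 11 genes, all tested, of which 0 passed (limma adjusted p) and 2 had an unadjusted p under 0.05. The median log2 fold change was -0.10, beside -0.06 for all genes tested. Vtn, which encodes vitronectin, an adhesive plasma protein, had 1485, 1191 and 1349 FPKM in HA livers, against 992, 1093 and 926 FPKM in PBS livers. Its groups did not overlap, and the log2 fold change was 0.42 (SE 0.13, limma adjusted p = 0.161). Agt, angiotensinogen, is a serpin by fold whose symbol lies outside the family name, and it had 287, 369 and 366 FPKM in HA livers, against 375, 392 and 375 FPKM in PBS livers. All 3 HA values lay below the PBS values (log2 fold change -0.17, SE 0.13, limma adjusted p = 0.509). Hsd11b1, which regenerates the glucocorticoid that Serpina6 carries, had 397, 408 and 409 FPKM in HA livers, against 388, 389.9 and 517 FPKM with PBS, and its groups overlapped.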
